A study of Mus musculus with 4 samples.

Results

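The nuclear genes for subunits of the mitochondrial respiratory chain and ATP synthase were followed in RNA sequencing of whole mouse mammary fat pad (MFP). They were chosen by symbol alone, as the genes whose names begin as those of complex I (Ndufa, Ndufb, Ndufc, Ndufs, Ndufv), complex II (Sdha to Sdhd), complex III (Uqcr), complex IV (Cox4 to Cox8) or ATP synthase (Atp5) do, without pseudogenes named as such. This gave 89 of the 55487 genes counted, with 40 in complex I, 4 in complex II, 8 in complex III, 19 in complex IV and 18 in ATP synthase. The MFP came from female c57bl/6j mice, aged (14 months, 2 libraries) or young (8 weeks, 2 libraries), with no treatment or altered allele named for either age. The libraries of each age are labelled biological replicates 1 and 2, and whether any of them pool several mice was not stated. No cell type was isolated before lysis, so all cell types of the tissue contributed RNA.

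The respiratory chain sits in the inner mitochondrial membrane. Complexes I and II take electrons from NADH and succinate, complex III passes them to cytochrome c, complex IV hands them to oxygen, and ATP synthase uses the resulting proton gradient to make ATP. Most subunits are made from nuclear genes used in nearly all cells, a few are made from mitochondrial DNA, and some complex IV subunits exist as pairs of isoforms of which 1 is found mainly in striated muscle or in thermogenic fat. White adipocytes hold few mitochondria for their size, whereas brown adipocytes and oxidative muscle fibres hold many.

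The libraries had 83936413 and 98402403 counts (aged replicates 1 and 2) and 77661766 and 68803304 counts (young replicates 1 and 2). At this depth 3 counts correspond to between 0.0337 and 0.0407 CPM (counts per gene scaled by TMM to the size of the library), which covers counting error only. Young replicate 1 stood apart from the other 3 libraries along the leading principal component, which held 60% of the variance. The markers of fat were abundant in all libraries, with 10 adipocyte genes summing to 16815 and 12552 CPM in aged and 10282 and 10392 CPM in young MFP. Of these 10 genes, 9 lay higher in both aged libraries, beside 23.3% of all genes. The list had a median of 0.48 on the log2 scale, aged over young. The markers of fast skeletal muscle were abundant too, with 14 genes summing to 47036 and 75808 CPM in aged and 12186 and 16946 CPM in young MFP. CPM are not scaled by gene length, and Ttn alone held 21285 and 28410 CPM in aged and 5219 and 6482 CPM in young MFP. Transcripts of muscle genes were thus present beside those of fat in every library. In whole tissue, more cells of a type and more RNA per cell cannot be told apart.

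Of the 89 subunit genes, 82 had enough counts to be tested, and the other 7 were at or close to 0. Cox7b2, a testis form of a complex IV subunit, had 0 counts in every library, as had a second gene entry carrying the symbol Atp5o. Cox8c, also a testis form, had 1 count in aged replicate 2 and 0 elsewhere. Cox6c2, Ndufs6b, Ndufb4c and Ndufa11b are annotated as processed pseudogenes, although their symbols do not name them so, and were kept by the rule. They had no mean over the 4 libraries above 0.107 CPM. Their highest value in 1 library was 0.317 CPM (Ndufa11b in young replicate 1). The lowest mean of a gene tested was 1.41 CPM. Per length of their exons, the highest mean levels over the 4 libraries belonged to Atp5b (858 TPM, counts per kilobase of exon, scaled to an equal sum in each library), Cox8a (850.0 TPM), Atp5a1 (772 TPM), Cox6b1 (742 TPM) and Cox4i1 (705 TPM). The lowest among the genes tested belonged to Cox6b2 (4.11 TPM), Cox4i2 (6.01 TPM) and Ndufa4l2 (11.4 TPM), each of which is the less used form of a subunit that has another gene.

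Aged was compared with young MFP to ask whether the age of the tissue goes with the level of the respiratory chain. Most subunit genes lay slightly higher in aged MFP, with 72 above and 10 below no difference, a median log2 fold change of 0.14 (1.1-fold) and quartiles of 0.05 and 0.25. Over all 22485 genes tested the median was -0.04. With scaling to total counts alone, which moved the median of all genes to -0.22, the median of the subunit genes became -0.05 with 34 above and 48 below no difference, while their distance from the median of all genes stayed at 0.17. Of the 82 genes, 77 had a log2 fold change between -0.5 and 0.5, and the median standard error was 0.18 (0.34 over all genes).

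In edgeR's quasi-likelihood test 0 subunit genes were called at an adjusted p under 0.05 (lowest adjusted p = 0.36), beside 0% of all genes. At an unadjusted p under 0.05 the same edgeR test placed 6 subunit genes higher (7.24% of all genes) and 0 lower (3.31% of all genes) in aged MFP. These were Cox6a2 and Cox8b of complex IV, Ndufa4l2, Ndufa12 and Ndufv3 of complex I, and Atp5g1 of ATP synthase. DESeq2 called 3 of them higher at an adjusted p under 0.05, namely Cox6a2, Cox8b and Atp5g1 (3.24% of all genes called higher), and 0 lower (0.71% of all genes). In simulated counts where genes kept their own spread, edgeR's test recovered none of the changed genes and DESeq2 made many false calls. Without aged replicate 1 the unadjusted edgeR test kept 2 (Cox6a2 and Cox8b), and without aged replicate 2 it kept 1 (Cox6a2). Scaling to total counts alone and the replicate number as a block each kept 3 (Cox6a2, Cox8b and Atp5g1).

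Both aged libraries lay above both young libraries in 32 of the 82 genes (39%, beside 23.3% of all genes), and both lay below in 0 (22.8% of all genes). Under total-count scaling these numbers were 18 above (13.4% of all genes) and 12 below (36.9% of all genes), and under upper quartile scaling they were 27 above (20.7% of all genes) and 2 below (25.7% of all genes). The 2 aged libraries were not alike. Aged replicate 2 lay above aged replicate 1 in 80 of the 82 subunit genes, by a median log2 difference of 0.33, where the median of all genes was 0.00. Against young replicates 1 and 2, the median subunit gene differed by log2 -0.06 and 0.03 in aged replicate 1, and by 0.27 and 0.35 in aged replicate 2. Thus aged replicate 1 overlapped the young libraries and aged replicate 2 lay above both, and without aged replicate 2 the median log2 fold change of the subunit genes was -0.03, with 39 above and 43 below no difference. The summed markers of fast skeletal muscle were also higher in aged replicate 2, whose median fast muscle marker was above that of aged replicate 1 by log2 0.90. Among these markers Myh1 and Myh2 were instead lower in aged replicate 2. The adipocyte markers went the other way, with a median log2 difference of -0.48 between aged replicates 2 and 1. The part of either tissue component in the level of the subunit genes was not tested.

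**Figure D1:**
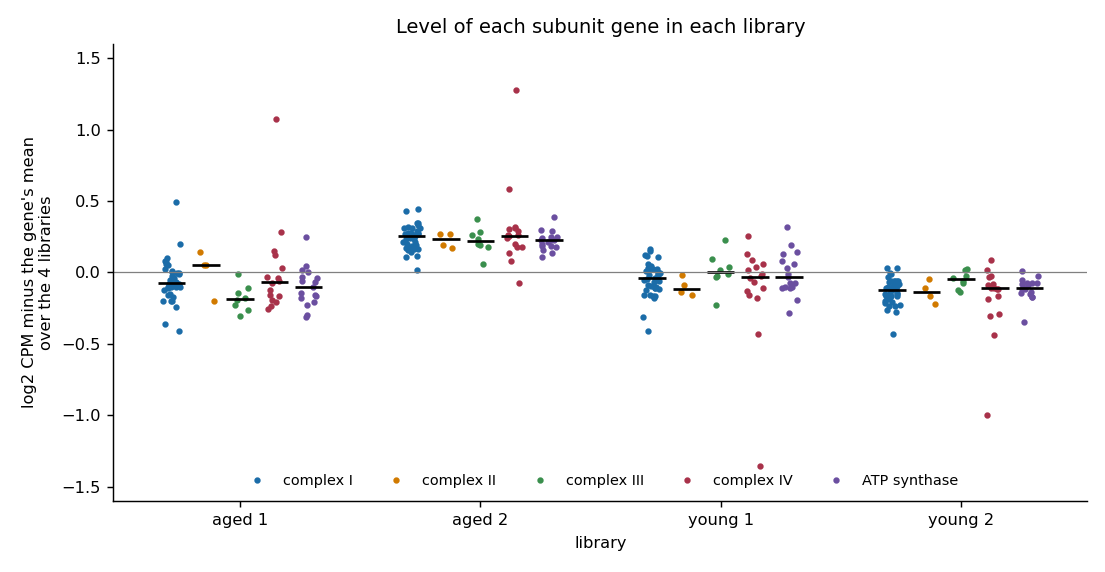
Log2 CPM of each of the 82 subunit genes tested in each library, minus the mean of that gene over the 4 libraries, with a column of points for each complex and a bar at its median. The bars of aged replicate 2 lie above those of the other 3 libraries in every complex, and the far points of complex IV are Cox6a2, high in both aged and low in both young libraries.

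The largest difference among the 82 genes was that of the complex IV isoform Cox6a2, which is the form of subunit VIa found in heart and skeletal muscle. Cox6a2 (ENSMUSG00000030785, chr7:128205435-128206387 of GRCm38, minus strand) was at 53.1 and 61.1 CPM in the aged libraries. In the young libraries it was at 9.82 and 12.6 CPM. Both aged libraries lay far above both young ones, by 5.1-fold in the fit (log2 fold change 2.35, SE 0.21, edgeR adjusted p = 0.36, DESeq2 adjusted p = 9.69e-15). Its value stayed between 2.17 and 2.55 with any library left out, while its edgeR adjusted p ran from 0.0617 to 0.976 over the alternatives. Its exons share 70 bases with Itgad on the opposite strand, and Itgad was at most at 1.06 CPM in any library. The ubiquitous partner Cox6a1 (ENSMUSG00000041697) was at 120.1 and 148 CPM in aged and 134 and 123 CPM in young MFP, so the ages overlapped (log2 fold change 0.06, SE 0.16; -0.13 under total-count scaling).

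Cox8b, the form of subunit VIII found in muscle and brown fat, was the next largest. Cox8b (ENSMUSG00000025488, chr7:140898945-140900446, minus strand) was at 53.7 and 66.1 CPM in aged and at 32.7 and 32.5 CPM in young MFP. The aged libraries lay above both young libraries, which were nearly equal (log2 fold change 0.88, SE 0.17, edgeR adjusted p = 0.37, DESeq2 adjusted p = 0.00941). Its ubiquitous partner Cox8a (ENSMUSG00000035885) was at 164 and 193 CPM in aged and at 142 and 149 CPM in young MFP. It too lay higher in both aged libraries, by a smaller amount (log2 fold change 0.30, SE 0.15, edgeR adjusted p = 0.532).

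Cox7a1, the form of subunit VIIa found in muscle and brown fat, did not share the pattern of Cox6a2 and Cox8b. Cox7a1 (ENSMUSG00000074218, chr7:30184144-30186078, plus strand) was at 12.8 and 18 CPM in aged and at 15.2 and 13 CPM in young MFP. The ages overlapped, with aged replicate 1 the lowest and aged replicate 2 the highest of the 4 libraries (log2 fold change 0.13, SE 0.25; -0.06 under total-count scaling and -0.14 without aged replicate 2). Its partner Cox7a2 (ENSMUSG00000032330) was at 54.1 and 73.1 CPM in aged and at 69.6 and 60.2 CPM in young MFP, and overlapped likewise (log2 fold change -0.03, SE 0.20; 0.16 without aged replicate 1 and 0.08 without young replicate 1). No near-identical copy of these 6 genes was found among the annotated transcripts.

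**Figure D2:**
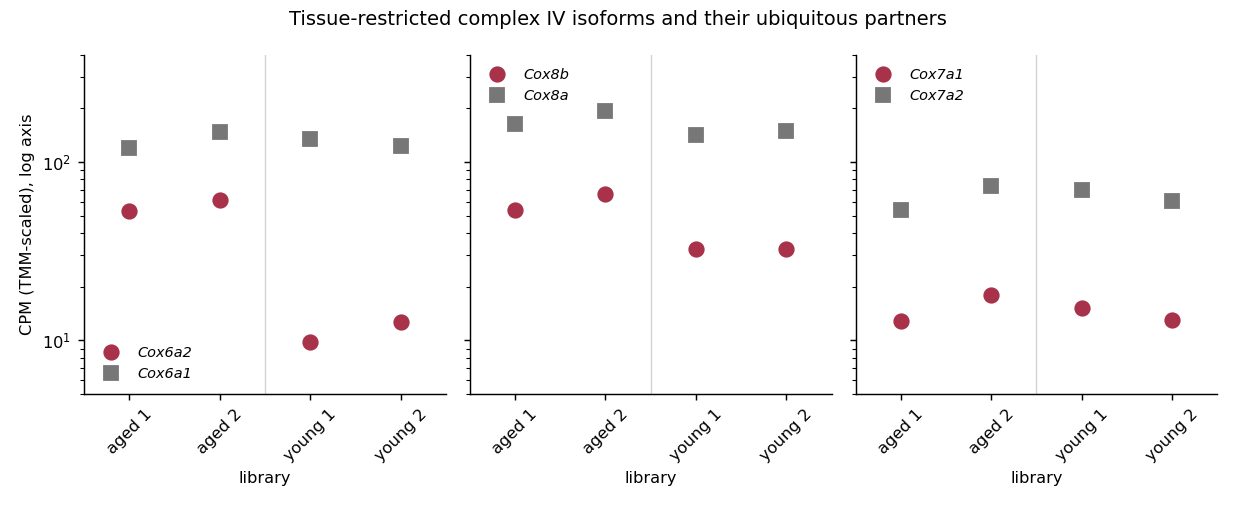
CPM on a log axis of the 3 tissue-restricted complex IV isoforms (circles) and their ubiquitous partners (squares) in each of the 4 libraries. Cox6a2 stands at 53.1 and 61.1 CPM in the aged against 9.82 and 12.6 CPM in the young libraries and Cox8b is also higher in both aged libraries, while Cox7a1 and its partner overlap between the ages.

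The ratio of 2 isoforms within a library does not depend on how libraries are scaled. Per length, Cox6a2 made up 31.3% and 29.9% of the Cox6a pair in aged and 7.04% and 9.57% in young MFP. The log2 ratio of Cox6a2 to Cox6a1 was higher in aged by 2.30 (4.92-fold). Cox8b made up 36% and 37.1% of the Cox8 pair in aged and 28.4% and 27.3% in young MFP, a log2 difference of 0.58 (1.49-fold). Cox7a1 made up 29.5% and 30.2% of the Cox7a pair in aged and 27.9% and 27.6% in young MFP, a log2 difference of 0.15 (1.11-fold). In all 3 pairs both aged ratios lay above both young ratios, which gave an exact two-sided permutation p of 0.333 for each, the smallest that 2 against 2 libraries allow, so these tests could not reach 0.05. Over the 12 ratios tested in all, the Benjamini-Hochberg adjusted values of the exact permutation test were 0.4 for the 10 ratios without overlap.

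Ratios between the restricted isoforms differed too. Cox6a2 over Cox8b was higher in aged by log2 1.48, Cox6a2 over Cox7a1 by 2.24 and Cox8b over Cox7a1 by 0.76, each with no overlap between the ages (exact two-sided permutation p = 0.333). Fast skeletal muscle markers had a median log2 fold change of 2.07, and 14 of 14 lay higher in both aged libraries, beside 23.3% of all genes. Aged replicate 2 lay above aged replicate 1 by a median log2 difference of 0.90 in these markers and by 0.20 in Cox6a2. Myh1 (1130 and 193 CPM in aged replicates 1 and 2) and Myh2 (578 and 2.16 CPM) went the other way. Slow skeletal muscle markers summed to 367 and 329 CPM in aged and to 254 and 309 CPM in young MFP. Of the 7 genes tested, 3 lay higher in both aged libraries (42.9%, beside 23.3% of all genes). Most of the sum of the list came from Atp2a2. Without Atp2a2, a choice made after seeing the values, the list summed to 52.8 and 4.69 CPM in aged and to 5.03 and 4.12 CPM in young MFP. Thus aged replicate 1 alone stood high. Myh7, the slow myosin heavy chain, was at 24.3 and 0.27 CPM in aged and at 0.634 and 0.0678 CPM in young MFP. The median log2 difference between aged replicates 2 and 1 was -2.48 over the whole list. Of the brown adipocyte markers, the defining gene Ucp1 was at 13.1 and 10.1 CPM in aged and at 21.8 and 18.1 CPM in young MFP. It thus lay lower in both aged libraries. In that list 4 of 8 genes lay higher in both aged libraries (23.3% of all genes) and 2 lay lower (22.8% of all genes). The part of muscle or brown fat RNA in the isoform levels was not tested.

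The sequence just before the start of transcription is shown for 3 genes of these pairs, to set the regulatory sequence of Cox8b beside that of its partner and of the partner of Cox6a2. The stretches are the 250 bases before the RefSeq start on GRCm38.p6, 5′ to 3′ on the strand of the gene, with the motifs searched in capitals. They lie at chr7:140900447-140900696 (minus strand), chr19:7217617-7217866 (minus strand) and chr5:115348959-115349208 (minus strand).
Cox8b: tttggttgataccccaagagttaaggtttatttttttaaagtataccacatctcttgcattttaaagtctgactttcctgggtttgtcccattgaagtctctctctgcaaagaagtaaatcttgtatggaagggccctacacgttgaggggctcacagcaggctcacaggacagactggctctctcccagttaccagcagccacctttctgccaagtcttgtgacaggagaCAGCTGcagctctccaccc
Cox8a: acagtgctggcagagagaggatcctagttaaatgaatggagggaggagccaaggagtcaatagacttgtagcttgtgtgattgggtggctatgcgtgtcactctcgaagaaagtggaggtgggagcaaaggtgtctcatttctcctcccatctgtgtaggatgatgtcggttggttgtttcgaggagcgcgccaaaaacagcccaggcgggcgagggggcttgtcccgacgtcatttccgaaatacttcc
Cox6a1: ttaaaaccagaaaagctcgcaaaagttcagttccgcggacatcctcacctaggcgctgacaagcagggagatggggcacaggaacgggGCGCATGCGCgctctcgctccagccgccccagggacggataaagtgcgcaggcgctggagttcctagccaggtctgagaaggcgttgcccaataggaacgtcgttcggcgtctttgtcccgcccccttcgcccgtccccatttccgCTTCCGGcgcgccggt
The capitals mark an E-box (CAGCTG) that begins 19 bases before the start of Cox8b. In Cox6a1 they mark overlapping copies of the NRF1 motif, which begins 162 and 160 bases before the start, and an ETS motif (CCGGAAG, here on the opposite strand) that begins 16 bases before it. None of the motifs searched lies wholly within the stretch shown for Cox8a. The promoter of Cox8a searched below, which runs on to 50 bases after the start, does hold the ETS motif. The 250 bases before the start of Cox7a1, another restricted isoform, are not shown and hold none of the motifs searched.

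Motifs were sought on both strands of RefSeq promoters (300 bases, 250 before to 50 after the start). Promoters on chromosome 18, where Atp5a1 lies, were left out for subunit genes and all genes alike. Of the 88 subunit gene symbols, 68 had an entry among the rest, and Cox6a2 and Ndufa4l2 had none. The NRF1 motif (GCGCATGC, whose reverse complement GCATGCGC gives the same matches) was in 14.7% of them and in 3.05% of all genes with a promoter. The ETS motif CCGGAAG was in 25% (9.93% of all genes) and the YY1 motif ATGGCG in 26.5% (10.2% of all genes). The estrogen-related receptor motif AAGGTCA was in 11.8% (5.38% of all genes), the E-box CAGCTG in 8.82% (18.3% of all genes) and the MEF2 motif in 1.47% (4.23% of all genes). NRF1, ETS-family and YY1 factors are known regulators of respiratory chain genes, whereas E-boxes and MEF2 sites are known from muscle genes. A match in these windows is a description of the letters and not of binding, and the promoters of the subunit genes had a median GC content of 57.3%, above 52.7% for all.

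Complex IV as a whole had 16 genes tested and a median log2 fold change of 0.12. Over the 13 genes other than Cox6a2, Cox7a1 and Cox8b the median was 0.09. Of the 16 genes, 6 lay higher in both aged libraries (37.5%, beside 23.3% of all genes). Cox4i1, the main form of the subunit that binds ATP, was at 326 and 379.6 CPM in aged and at 330.3 and 309.8 CPM in young MFP, overlapping between the ages (log2 fold change 0.14, SE 0.17; -0.04 under total-count scaling). Its lung and hypoxia-linked form Cox4i2 was at 1.6 and 1.37 CPM in aged and at 1.29 and 1.53 CPM in young MFP, and the log2 ratio of Cox4i2 to Cox4i1 differed by -0.06 with overlap (exact two-sided permutation p = 0.667). Cox6b2, a testis form, was at 1.52 and 1.65 CPM in aged and at 1.33 and 1.14 CPM in young MFP, and its ratio to Cox6b1 (log2 fold change of Cox6b1 0.23, SE 0.17) overlapped as well. These minor forms made up less than 1% of their pair per length in every library. The other members of complex IV named by the rule for named genes lay close to no difference. Cox5a, which takes part in allosteric control of the enzyme, had a log2 fold change of 0.07 (SE 0.20; -0.12 under total-count scaling), and Cox7b one of 0.09 (SE 0.23; -0.10 under total-count scaling). Cox7a2l, which helps complexes III and IV assemble into supercomplexes, was at 61 and 65.9 CPM in aged and at 74.5 and 50.5 CPM in young MFP, so that both aged libraries lay between the young ones (log2 fold change 0.02, SE 0.23; -0.16 under total-count scaling). Cox7c had the other of the lowest values (log2 fold change -0.02, SE 0.16).

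**Figure D3:**
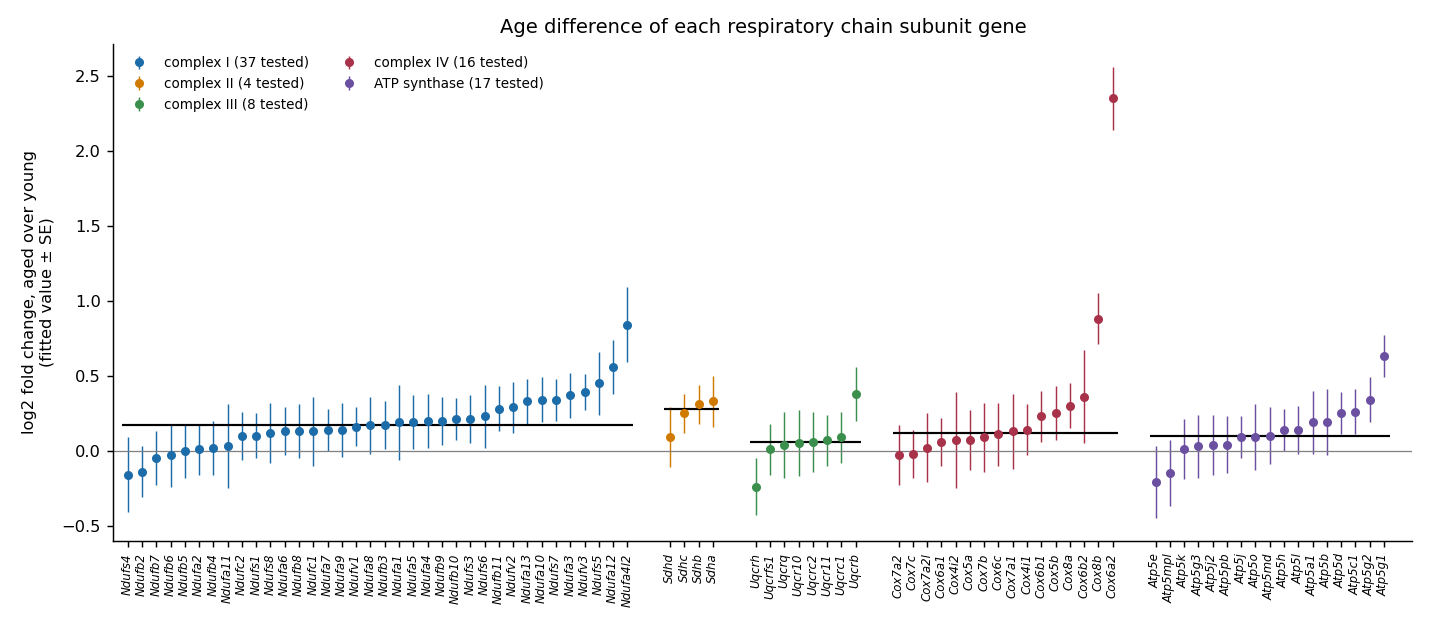
Fitted log2 fold change of aged over young MFP, with its standard error, for 81 of the 82 subunit genes tested, ordered within each complex, with a line at the median of all genes tested of the complex. Nearly all genes tested lie within 0.5 of no difference (77 of 82), and Cox6a2 at 2.35 stands far from the rest; under total-count scaling 38 of the 82 genes change sign.

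Complex I, the NADH dehydrogenase and the largest of the complexes, had 37 genes tested with a median log2 fold change of 0.17 and a range of -0.16 to 0.84. The median was 0.33 without aged replicate 1, 0.01 without aged replicate 2 and -0.01 under total-count scaling. Both aged libraries lay above both young ones in 16 of the genes (43.2%, beside 23.3% of all genes) and below in 0 (22.8% of all genes). Ndufa4l2, a hypoxia-linked relative of Ndufa4, was at 5.21 and 4.71 CPM in aged and at 2.79 and 2.75 CPM in young MFP. The ages did not overlap (log2 fold change 0.84, SE 0.25, edgeR adjusted p = 0.432, DESeq2 adjusted p = 0.0544), and 32 bases of its exons are shared with Shmt2 on the opposite strand, which was at between 25.2 and 34.4 CPM and overlapped between the ages. Ndufa4 itself, since reassigned to complex IV but kept here by its symbol, was at 95.1 and 121 CPM in aged and at 99.4 and 89 CPM in young MFP (log2 fold change 0.20, SE 0.18). The log2 ratio of Ndufa4l2 to Ndufa4 was higher in aged by 0.64 with no overlap (exact two-sided permutation p = 0.333).

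Ndufa12, an accessory subunit, was at 40.8 and 51.8 CPM in aged and at 30.6 and 32.2 CPM in young MFP (log2 fold change 0.56, SE 0.18, edgeR adjusted p = 0.458), and its near-identical copy Gm15920 held 3.03% as many counts. Ndufv3, a subunit of the NADH-binding part, was at 64.4 CPM in both aged libraries and at 49.7 and 48.3 CPM in the young (log2 fold change 0.39, SE 0.12, edgeR adjusted p = 0.445). In both genes the aged libraries lay above the young ones. Of the core subunits that carry electrons, Ndufs1 was at 169 and 201 CPM in aged and at 172 and 175 CPM in young MFP, with overlap (log2 fold change 0.10, SE 0.15; -0.09 under total-count scaling). Ndufv1, which binds NADH, was at 127 and 143 CPM in aged and at 120.1 and 122 CPM in young MFP, higher in both aged libraries (log2 fold change 0.16, SE 0.13; -0.02 under total-count scaling). The lowest values in complex I belonged to the accessory subunits Ndufs4 (42.1 and 64.8 CPM in aged, 62.6 and 56.9 CPM in young) and Ndufb2 (19.3 and 21.7 CPM in aged, 23.8 and 21.4 CPM in young). Their log2 fold changes were -0.16 (SE 0.25) and -0.14 (SE 0.17), with the ages overlapping in both, and that of Ndufs4 was 0.11 without aged replicate 1.

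Complex II, the succinate dehydrogenase shared with the citric acid cycle, had the highest median of the 5 complexes with all libraries, 0.28 over 4 genes. Without aged replicate 1 its median was 0.31, below that of complex I (0.33) and equal to that of complex IV (0.31). Sdha, the flavoprotein that oxidises succinate, was at 453 and 526 CPM in aged and at 391 and 389 CPM in young MFP (log2 fold change 0.33, SE 0.17, edgeR adjusted p = 0.535). Sdhb, the iron-sulfur subunit, was at 114 and 116 CPM in aged and at 96.8 and 88.4 CPM in young MFP (log2 fold change 0.31, SE 0.13, edgeR adjusted p = 0.498). Both lay higher in both aged libraries, as did the membrane anchor Sdhc at 124 and 137 against 109 and 111 CPM (log2 fold change 0.25, SE 0.13). The other anchor, Sdhd, overlapped at 96.1 and 133 CPM in aged and 109 and 107 CPM in young MFP (log2 fold change 0.09, SE 0.20; -0.10 under total-count scaling and -0.17 without aged replicate 2). Without aged replicate 2 the summed level of complex II in aged over young MFP was 0.17 on the log2 scale, compared with 0.28 with all libraries.

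Complex III, the cytochrome bc1 complex, had the lowest median, 0.06 over 8 genes. Of the 8, 1 lay higher in both aged libraries (12.5%, beside 23.3% of all genes). That gene was Uqcrb, which binds ubiquinone, at 60.6 and 79.3 CPM in aged and at 52 and 55.6 CPM in young MFP (log2 fold change 0.38, SE 0.18, edgeR adjusted p = 0.523). Uqcrc1, a core protein, was at 212 and 260.2 CPM in aged and at 227 and 217 CPM in young MFP (log2 fold change 0.09, SE 0.17; -0.09 under total-count scaling). Uqcrfs1, the Rieske iron-sulfur protein, had a log2 fold change of 0.01 (SE 0.17; -0.18 under total-count scaling). Uqcrh, the hinge protein near cytochrome c1, had the lowest value of all 82 genes, at 92.4 and 119 CPM in aged and at 134 and 116 CPM in young MFP, with overlap (log2 fold change -0.24, SE 0.19, edgeR adjusted p = 0.617). The median of complex III was -0.18 without aged replicate 2, 0.24 without aged replicate 1 and -0.13 under total-count scaling. Its log2 summed level in aged over young MFP was 0.04, and -0.14 under total-count scaling.

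ATP synthase had 17 genes tested, with a median log2 fold change of 0.10. Of these, 6 lay higher in both aged libraries (35.3%, beside 23.3% of all genes). Atp5g1, which with Atp5g2 and Atp5g3 encodes the c subunit of the rotor ring, was at 51.8 and 57.1 CPM in aged and at 35.9 and 34.3 CPM in young MFP (log2 fold change 0.63, SE 0.14, edgeR adjusted p = 0.398, DESeq2 adjusted p = 0.047). Atp5g2 was at 47.1 and 55.7 CPM in aged and at 39.9 and 41.3 CPM in young MFP (log2 fold change 0.34, SE 0.15). Both lay higher in both aged libraries, whereas Atp5g3, the most abundant per length, was at 149 and 189 CPM in aged and at 184 and 148 CPM in young MFP and overlapped (log2 fold change 0.03, SE 0.21; -0.16 under total-count scaling). The log2 ratio of Atp5g1 to Atp5g3 was higher in aged by 0.61 and that to Atp5g2 by 0.30, each with no overlap (exact two-sided permutation p = 0.333).

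The catalytic subunits Atp5a1 and Atp5b were at 711 and 877 CPM and at 1082 and 1306 CPM in aged MFP. In young MFP they were at 686 and 703 CPM and at 1033 and 1054 CPM. Both lay higher in both aged libraries, though aged replicate 1 was close to the young ones (log2 fold changes 0.19, SE 0.21, and 0.19, SE 0.22). The small subunits Atp5e and Atp5mpl had the lowest values, -0.21 (SE 0.24) and -0.15 (SE 0.22), and both overlapped between the ages. Summed over all 89 genes, the respiratory chain made up 8325 and 10265 CPM in aged and 8419 and 8107 CPM in young MFP, so that aged replicate 1 lay between the young libraries. The log2 ratio of the mean sums was 0.17, and it was 0.01 without aged replicate 2.

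The machinery around the subunits was described with lists of genes, whose medians lay between -0.20 and 0.08 under total-count scaling for all lists other than the mitochondrially encoded subunits. None of the assembly factors of the 5 complexes passed an unadjusted p of 0.05 in the edgeR test in either direction (7.24% of all genes higher and 3.31% lower). DESeq2 called 0 of them (3.24% of all genes higher and 0.71% lower). Their medians were 0.10 for complex I (15 genes), -0.01 for complex II (4), 0.10 for complex III (6), 0.03 for complex IV (22) and 0.08 for ATP synthase (4). Their log2 fold changes lay between -0.32 and 0.38. Named here are the 2 genes of each list with the largest differences in either direction, among them Ndufaf5 (log2 fold change 0.38, SE 0.25), Tmem126b (0.30, SE 0.18), Cox17 (-0.32, SE 0.21), Taco1 (0.32, SE 0.19), Atpaf1 (0.31, SE 0.19) and Lyrm7 (-0.29, SE 0.29). Ttc19, Tmem70, Sdhaf1 and Sdhaf2 had log2 fold changes of 0.20, 0.10, -0.12 and -0.08 with overlap between the ages (Tmem70 -0.09 under total-count scaling). Cox17, a copper chaperone of complex IV, lay lower in both aged libraries, at 10.1 and 12.1 against 14.8 and 13 CPM. Mitochondrial ribosomal proteins, which make the mitochondrially encoded subunits, had a median of 0.06 over 77 genes with 0 at an unadjusted p under 0.05, and the largest were Mrpl42 (0.62, SE 0.23) and Mrpl51 (0.39, SE 0.21).

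The 13 subunits encoded in mitochondrial DNA had a median log2 fold change of 0.54 (0.36 under total-count scaling). Of the 13, 11 were higher in both aged libraries (84.6%, beside 23.3% of all genes). The 2 that overlapped between the ages were mt-Nd6 (log2 fold change 0.06, SE 0.23) and mt-Co2 (0.25, SE 0.22). The 13 summed to 31976 and 36488 CPM in aged and to 27035 and 20704 CPM in young MFP. Those named by rule were mt-Nd2, a complex I subunit, at 3010 and 3410 against 2114 and 1569 CPM (log2 fold change 0.80, SE 0.31, edgeR adjusted p = 0.488), and mt-Atp8, an ATP synthase subunit, at 2.3 and 2.47 against 1.34 and 1.18 CPM (log2 fold change 0.92, SE 0.30, edgeR adjusted p = 0.458). At an unadjusted p under 0.05, the edgeR test placed 2 of the 13 higher (7.24% of all genes) and 0 lower (3.31% of all genes). DESeq2 called 0 of the 13 (3.24% of all genes called higher and 0.71% lower).

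Carriers and the export of ATP had 18 genes tested and a median of 0.11. At an unadjusted p under 0.05 the edgeR test placed 3 higher (7.24% of all genes) and 0 lower (3.31% of all genes). DESeq2 called 2 higher (3.24% of all genes). Slc25a4, the muscle form of the ADP/ATP carrier, was at 324 and 409 CPM in aged and at 167 and 149.7 CPM in young MFP (log2 fold change 1.21, SE 0.19, edgeR adjusted p = 0.36, DESeq2 adjusted p = 0.000123). Its widely used relative Slc25a5 was at 175 and 220.4 CPM in aged and at 220.3 and 186 CPM in young MFP, with overlap (log2 fold change -0.04, SE 0.19; 0.11 without aged replicate 1). The log2 ratio of Slc25a4 to Slc25a5 was higher in aged by 1.25 with no overlap (exact two-sided permutation p = 0.333). Ckmt2, the mitochondrial creatine kinase of striated muscle, was at 51.3 and 26.6 CPM in aged and at 10.7 and 5.76 CPM in young MFP (log2 fold change 2.24, SE 0.50, edgeR adjusted p = 0.398). Cycs, cytochrome c, overlapped at 56.7 and 85.7 against 73.1 and 66 CPM (log2 fold change 0.03, SE 0.24; -0.16 under total-count scaling).

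The 17 regulators of mitochondrial biogenesis had a median of 0.04. At an unadjusted p under 0.05 the edgeR test placed 3 higher (7.24% of all genes) and 0 lower (3.31% of all genes). DESeq2 called 3 higher (3.24% of all genes) and 0 lower (0.71% of all genes). Ppargc1a, a coactivator of mitochondrial biogenesis, was at 17.5 and 16.9 CPM in aged and at 9.73 and 11.1 CPM in young MFP (log2 fold change 0.73, SE 0.18, edgeR adjusted p = 0.409). Esrrb, an estrogen-related receptor, was at 31.9 and 45.2 against 3.6 and 10.7 CPM (log2 fold change 2.43, SE 0.61), and Perm1, a muscle regulator linked to both, was at 21.2 and 17.9 against 6.06 and 3.58 CPM (log2 fold change 2.02, SE 0.34). All 3 lay higher in both aged libraries. The list as a whole was divided, with 9 genes above and 8 below no difference. In both aged libraries 5 lay higher (23.3% of all genes) and 2 lower (22.8% of all genes). The 2 lower were Esrra, at 58.5 and 66.6 against 79.5 and 72.1 CPM (log2 fold change -0.28, SE 0.14), and Pprc1 (-0.18, SE 0.14). The citric acid cycle had 14 genes and a median of 0.27. At an unadjusted p under 0.05 the edgeR test placed 2 of its genes higher (7.24% of all genes) and 0 lower (3.31% of all genes). DESeq2 called 0 (3.24% of all genes called higher and 0.71% lower). Citrate synthase, Cs, was at 484 and 666 against 441 and 473 CPM (log2 fold change 0.33, SE 0.23; 0.08 without aged replicate 2). Idh2, a mitochondrial isocitrate dehydrogenase, was at 113 and 70.2 against 60.4 and 64.7 CPM, with aged replicate 1 far above the rest (log2 fold change 0.55, SE 0.27; 0.15 without aged replicate 1). Ogdh, part of the oxoglutarate dehydrogenase complex, had a log2 fold change of 0.45 (SE 0.16), which lay between 0.42 and 0.49 with any library left out.

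**Figure D4:**
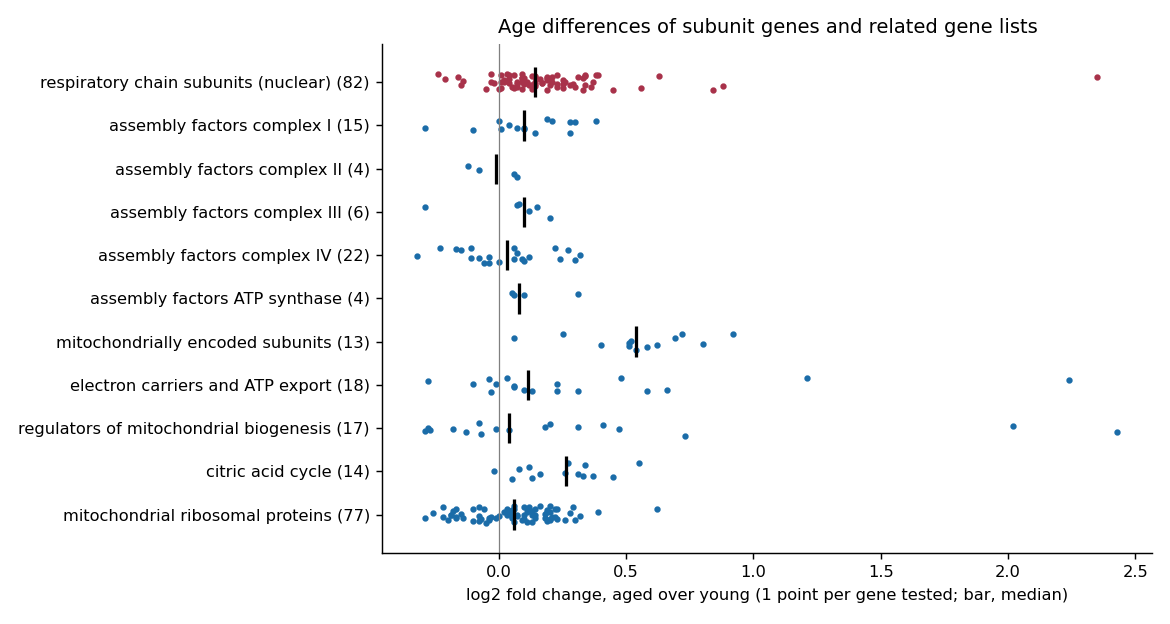
Log2 fold change of aged over young MFP for each gene tested, by list, with a bar at the median and the number of genes in parentheses. The nuclear subunits have a median of 0.14 (-0.05 under total-count scaling) and the mitochondrially encoded subunits one of 0.54, and the far points are Cox6a2 (2.35), Ckmt2 (2.24), Slc25a4 (1.21), Esrrb (2.43) and Perm1 (2.02).

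The marker lists of the other cell types of the tissue were set beside the subunit genes. Fibroblast markers summed to 2478 and 1829 CPM in aged and to 3909 and 4546 CPM in young MFP. In both aged libraries 3 of 6 were lower (22.8% of all genes) and 3 of 6 higher (23.3% of all genes). Immune markers summed to 134 and 239.7 CPM in aged and to 1182 and 104 CPM in young MFP, so that young replicate 1 stood far above the rest. Mammary epithelial markers summed to 1689 and 1684 CPM in aged and to 917 and 2271 CPM in young MFP. Endothelial markers (654 and 475 against 533 and 519 CPM) overlapped. Smooth muscle markers summed to 979.5 and 1302 CPM in aged and to 379 and 753 CPM in young MFP, but only Des, which striated muscle also expresses, was higher in both aged libraries (507 and 752 against 122 and 132 CPM). Without Des, a choice made after seeing the values, the other 4 genes summed to 472 and 549.7 CPM in aged and to 257 and 621 CPM in young MFP, and each of them overlapped between the ages. Brown adipocyte markers summed to 118 and 123 CPM in aged and to 83.7 and 97.5 CPM in young MFP. Of its 8 genes, 4 lay higher in both aged libraries (23.3% of all genes) and 2 lower (22.8% of all genes). Among those higher were Fabp3 (23.3 and 5.72 against 1.46 and 0.989 CPM) and Ppargc1a (17.5 and 16.9 against 9.73 and 11.1 CPM). The part of any of these cell types in the level of the subunit genes was not tested. Without young replicate 1, the median log2 fold change of the subunit genes was 0.18, with 76 above and 6 below no difference.

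**Figure D5:**
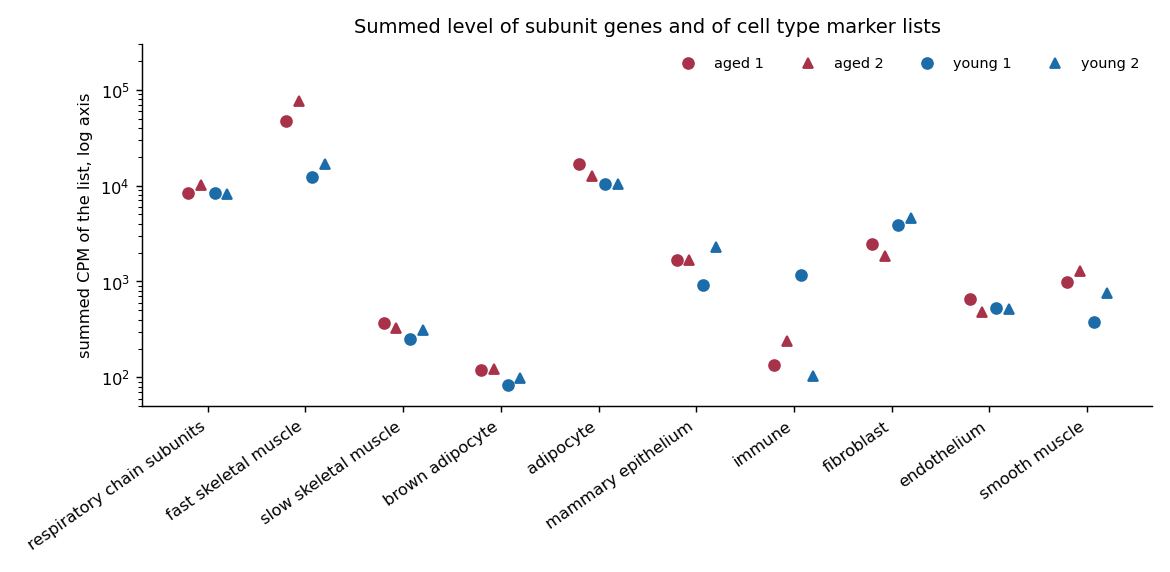
Summed CPM, on a log axis, of the 89 subunit genes and of each list of cell type markers in each library. The sums of the subunit genes lie between 8107 and 10265 CPM, while those of the fast skeletal muscle markers lie between 12186 and 16946 CPM in young and at 47036 and 75808 CPM in aged MFP. Per length of exons, which is not drawn, the young sums were 7697 and 13815 TPM for these markers and 15234 and 17071 TPM for the subunit genes. The aged sums per length were 27456 and 49084 TPM against 15534 and 18640 TPM.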

How the data were processed

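Total RNA of whole MFP, depleted of ribosomal RNA, was sequenced from 2 aged and 2 young samples. The authors deposited whole-number counts of reads per gene, not normalized, filtered or pooled, with 1 column per sample. The submitters' processing notes name R 3.6.1, featureCounts and the builds hg38 and GRCm38, and the strand setting of the counting was not given in the sources used here. The members and lists described were chosen with earlier results of these data known.

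Counts were analysed with R 4.3.3 and edgeR 4.0.16 (filterByExpr, TMM, quasi-likelihood test in its legacy form, age as the only term, Benjamini-Hochberg adjustment over 22485 genes), and DESeq2 1.42.0 was run as an alternative. The code was tested on simulated counts, in which fitted fold changes lay close to those set. When genes kept their own spread edgeR's test recovered none of the changed genes, so 0 calls by it do not show that genes are alike, and DESeq2 recovered most of them with many false calls. Standard errors were obtained from the log2 fold change and the F statistic (size over root F). P-values measure the spread between samples labelled as biological replicates. The labels name no pairing of samples between the ages. The deviations of same-numbered samples correlated at -0.482. With 2 samples per age the sign of this value depends on the numbering alone, so it cannot decide whether samples were paired. Log2 isoform ratios used counts plus 0.5 and an exact permutation test over libraries (scipy 1.17.1). TPM values used exon lengths of GENCODE M21 on GRCm38, which held all 89 members and 55227 of 55487 genes. Copies were sought with blastn 2.17.0 (at least 95% identity over 100 bases of coding sequence), and promoters came from RefSeq. No molecular identifiers are described, so PCR copies may be counted and floors cover counting error only.

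Genes were named by rule. They were the isoform pairs, the c subunits, Cox7a2l, core subunits, the 2 highest and 2 lowest of each complex, genes called by either tool, every member not tested, and the 2 largest differences of each list with Slc25a4, Slc25a5, Ppargc1a, Cs and Cycs. Ndufv3, Sdhc, Itgad, Shmt2, Ucp1, Gm15920, Atp2a2, Esrra, Pprc1, Ttn, Myh1, Myh2, Fabp3, mt-Nd6 and mt-Co2 were named after their values were seen. So were the ratios between restricted isoforms, between c subunit genes and between carriers. Alternatives were RLE, upper quartile and total-count scaling, no filter, a minimum of 10 counts per sample, omission of mitochondrially encoded or of muscle marker genes, a replicate block, leaving out each sample, and 5 added to the counts of a ratio. A crossed replicate block and the edgeR fit without the legacy method were chosen after seeing the data, as were marker sums without Des or Atp2a2. Columns of other samples numbered 0. Sequences of proteins were not used here. The values of 1 gene are not reported here, although counts and medians over all members include it.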

Additional observations from a re-analysis of the deposited data

How the results depend on the processing

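Members called at an adjusted p under 0.05 numbered 3 in DESeq2 and 0 under every edgeR alternative. Members higher in aged MFP at an unadjusted p under 0.05 (6 in the analysis as reported) numbered 3 with total counts only, 3 with the replicate block and 1 to 5 with a library left out. The block changed no call at an adjusted p, and the crossed block gave 4. Scaling to total counts turned the median log2 fold change of members to -0.05, of complex I to -0.01, of complex III to -0.13, of complex IV to -0.07 and of ATP synthase to -0.09, and left complex II at 0.10. It gave 18 members with both aged libraries above (13.4% of all genes) and 12 with both below (36.9%), and upper quartile scaling gave 27 above (20.7%) and 2 below (25.7%). The log2 summed level became -0.02 for all members, 0.00 for complex I, 0.09 for complex II, -0.14 for complex III, 0.01 for complex IV and -0.02 for ATP synthase. Since this scaling moved all genes alike, its effect follows from its construction.

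With a library left out, medians ran from -0.03 to 0.29 for all members, from 0.01 to 0.33 for complex I, from 0.19 to 0.31 for complex II, from -0.18 to 0.24 for complex III, from 0.00 to 0.31 for complex IV and from -0.04 to 0.28 for ATP synthase. Summed levels ran from 0.01 to 0.31 for all members, 0.03 to 0.32 for complex I, 0.17 to 0.38 for complex II, -0.17 to 0.23 for complex III, 0.03 to 0.35 for complex IV and 0.00 to 0.30 for ATP synthase. The lowest of each are without aged replicate 2. The log2 ratio of Cox4i2 to Cox4i1 ran from -0.29 to 0.16. The 3 ratios of restricted to ubiquitous isoforms kept their direction under every alternative (2.06 to 2.54 for Cox6a2, 0.54 to 0.62 for Cox8b and 0.12 to 0.18 for Cox7a1 with a library left out).

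Named genes whose sign turned with total counts were Cox7a1 -0.06, Cox4i2 -0.10, Cox6a1 -0.13, Cox4i1 -0.04, Cox7b -0.10, Cox7a2l -0.16, Atp5g3 -0.16, Ndufs1 -0.09, Ndufv1 -0.02, Uqcrc1 -0.09, Uqcrfs1 -0.18, Cox5a -0.12, Sdhd -0.10, Tmem70 -0.09 and Cycs -0.16. With upper quartile scaling Cox7a2l and Atp5g3 came to 0.00 and Uqcrfs1 to -0.03. Uqcrfs1 was -0.01 with no filter and 0.00 with either block. With a library left out, the sign of 21 named genes turned, and the ranges were -0.14 to 0.34 for Cox7a1, -0.06 to 0.21 for Cox4i2, -0.10 to 0.19 for Cox6a1, -0.26 to 0.16 for Cox7a2, -0.22 to 0.34 for Cox7b, -0.22 to 0.33 for Cox7a2l, -0.16 to 0.19 for Atp5g3, -0.04 to 0.21 for Ndufs1, -0.06 to 0.22 for Uqcrc1, -0.19 to 0.16 for Uqcrfs1, -0.18 to 0.27 for Cox5a, -0.50 to 0.11 for Ndufs4, -0.17 to 0.29 for Sdhd, -0.18 to 0.11 for Cox7c, -0.43 to 0.03 for Atp5e, -0.39 to 0.04 for Atp5mpl, -0.41 to 0.27 for Sdhaf1, -0.21 to 0.08 for Sdhaf2, -0.12 to 0.29 for Tmem70, -0.21 to 0.11 for Slc25a5 and -0.30 to 0.29 for Cycs. None of these genes was called in any setting. Other than with a library left out, 640 of 669 values of named genes kept their sign and side of the threshold. With a library left out an arm holds 1 sample, which is taken to vary like the other age. Depth did not limit the members tested, whose lowest mean was 1.41 CPM, but 3 counts limit what can be seen of the 7 not tested.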

Other observations

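Among the subunits encoded in mitochondrial DNA, levels per length fell into separate ranges. The complex IV subunit mt-Co1 was at 23312 and 26313 TPM in aged and at 20812 and 19245 TPM in young MFP. The complex IV subunit mt-Co2 was at 120.5 and 140.2 TPM in aged and at 123 and 110.4 TPM in young MFP, and mt-Co3 was at 138 and 164 TPM in aged and at 118 and 107 TPM in young MFP. The ATP synthase subunit mt-Atp6 was likewise low, at 121 and 134 TPM in aged and at 86.9 and 81.4 TPM in young MFP. The nuclear complex IV subunit Cox4i1 was at a mean of 714 TPM in aged and 695 TPM in young MFP, between these ranges. The cause was not tested.

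No gene named Ndufb1 was among the 89 members, while Ndufb1-ps, left out by its symbol, had 1017 and 1837 counts in aged and 1558 and 1102 counts in young MFP and overlapped between the ages (log2 fold change -0.04). Of the 85 members with a coding sequence to search, 24 had a near-identical copy elsewhere, and in 9 the copies together held more than 1% as many counts, with the largest shares at Atp5l (11.1%) and Uqcr10 (10.1%). Exons of 27 members share bases with a gene on the opposite strand. Across the 82 members tested, the log2 fold change had a Spearman rho of -0.07 with exon length and of -0.05 with mean log2 CPM, over genes measured in the same 4 libraries.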
